A study of Homo sapiens with 9 samples.

Results

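LOC643339 is a long non-coding RNA (lncRNA) gene on the minus strand of chromosome 12 (GRCh38, chr12:93003758-93377736), 374 kb long in the RefSeq annotation. Its peaks were taken as every deposited γH2AX peak that overlapped this interval by 1 bp or more, which gave 189 of the 213467 peaks in 8 lists. The gene was picked because hydroxyurea (HU) put so many peaks in it, so the HU peak numbers and densities that follow describe the choice and were not tested. The samples were human B-lymphocytes of an established line, labelled GM09027A and named GM07027 in the methods of the study. The cells were untreated or had been treated for 24 h with aphidicolin (APH) at 0.1 μg/mL according to the labels, with HU at 2 mM, or with methyl methanesulfonate (MMS) at 200 μM. Each condition had 2 separate chromatin immunoprecipitations with an antibody to γH2AX, and broad peaks had been called in each replicate alone against input. For each drug the methods of the study describe 2 treatments done independently, each with its own immunoprecipitation. All groups came from this 1 line, and the labels name no engineered change in it.

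γH2AX is histone H2AX phosphorylated by kinases such as ATR and ATM around stalled replication forks and DNA breaks, and it can spread along chromatin away from the site that triggered it. HU blocks ribonucleotide reductase and so depletes the deoxynucleotides that forks need, APH inhibits replicative DNA polymerases, and MMS methylates DNA bases. A lncRNA is a transcript without a recognised protein product, and many long ones, LOC643339 among them, have no function assigned in the annotation used here. Chromatin immunoprecipitation measures the mark on DNA and says nothing of whether the gene was transcribed, and no expression was measured in these samples.

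Stretches of the GRCh38 reference are printed here to show what the start of the gene and a site of HU peaks look like. The first is the promoter, 250 bases before and 50 bases after the RefSeq start site at position 93377736 (chr12:93377687-93377986, minus strand, RefSeq GRCh38.p14), because it is the stretch that the gene shares with its nearest neighbour NUDT4. Capitals mark the GC box letters GGGCGG or its reverse complement CCGCCC, both strands having been searched without overlap. The other is the middle 300 bases of the stretch that peaks of both HU replicates had in common at the shared site that ranked 3 by mean fold enrichment (chr12:93366475-93366774, plus strand), as an example of a site marked in both replicates. It would have capitals where the sequence matched an Alu element, the commonest short interspersed repeat of the human genome.
Promoter of LOC643339: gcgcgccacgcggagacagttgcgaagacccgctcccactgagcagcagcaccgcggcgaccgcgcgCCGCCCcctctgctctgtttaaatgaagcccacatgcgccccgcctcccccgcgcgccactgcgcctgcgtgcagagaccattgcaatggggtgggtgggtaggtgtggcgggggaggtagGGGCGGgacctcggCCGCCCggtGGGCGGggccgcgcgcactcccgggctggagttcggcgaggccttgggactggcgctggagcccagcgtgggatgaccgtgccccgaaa
Shared site 3: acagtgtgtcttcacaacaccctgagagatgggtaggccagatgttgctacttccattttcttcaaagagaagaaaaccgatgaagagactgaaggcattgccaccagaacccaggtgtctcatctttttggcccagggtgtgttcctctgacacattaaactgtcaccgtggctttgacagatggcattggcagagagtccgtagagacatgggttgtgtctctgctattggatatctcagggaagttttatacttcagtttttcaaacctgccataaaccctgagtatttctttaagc
The promoter is 73.0% GC and holds 4 GC boxes and 36 CpG dinucleotides. Of 35116 RefSeq promoters of the same 300 bases, 45.0% hold a GC box, 9.06% hold as many as this one or more, and 86.4% have a lower GC content (median 58.7%). The 300 bases of shared site 3 are 45.3% GC and hold no Alu match. The whole site, 1813 bp wide, is 42.0% GC and 29.0% Alu-like.

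HU replicate 1 had 89 peaks in the gene and HU replicate 2 had 86. Untreated cells had 2 and 1 peaks in replicates 1 and 2, APH-treated cells 2 and 4, and MMS-treated cells 3 and 2. HU lists thus held 175 of the 189 peaks, and the lower HU number, 86, stood against at most 4 in any of the 6 other lists. The lists differ in size, which bears on every such number. Autosomal peaks numbered 79891 and 69922 with HU, 17658 and 14009 with APH, 12202 and 10465 with MMS, and 4779 and 4327 without treatment. The lists give no reads, so sequencing depth is unknown here, and depth, the share of reads in peaks and treatment cannot be told apart in a peak number.

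To allow for list size, the peaks per base in the gene were divided by the autosomal peaks per assembled base of the same list, a quantity called the density ratio here. Under HU the density ratio was 8.21 in replicate 1 (95% interval 6.59 to 10.1) and 9.07 in replicate 2 (7.25 to 11.2). These are exact Clopper-Pearson binomial intervals for the share of the list's peaks that lay in the gene, and they cover counting error only. Had the HU peaks been spread evenly, 10.8 and 9.49 of them would have overlapped the gene. In units of peaks per 25 kb the gene held 5.95 and 5.75 against autosomal means of 0.725 and 0.634. The mean HU density ratio was 8.64 ± 0.604 (SD, n = 2). It was 3.94 when only peaks of at least 3-fold enrichment were kept in each list, and 5.11 when every list was cut to the same number of its strongest peaks, so its size depends on which peaks enter.

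Outside HU the gene stood nearer to the autosomal mean. Untreated replicates had density ratios of 3.08 (0.374 to 11.1) and 1.70 (0.0431 to 9.49). APH replicates had 0.835 (0.101 to 3.02) and 2.10 (0.573 to 5.39). MMS replicates had 1.81 (0.374 to 5.29) and 1.41 (0.171 to 5.09). All 6 intervals included 1, the level of an even spread, and with 1 to 4 peaks behind each value a several-fold change could not have been resolved.

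The question whether APH or MMS changed the share of marks that fell in this gene was put to the conditions that had not chosen it. The mean density ratio was 2.39 ± 0.977 without treatment, 1.47 ± 0.898 with APH and 1.61 ± 0.285 with MMS (SD, n = 2 each). On the log2(ratio + 0.5) scale APH lay 0.59 below untreated (difference −0.59, exact two-sided permutation test, p = 0.667). MMS lay below untreated by a difference of −0.42 (exact permutation test, p = 0.667), and APH differed from MMS by −0.17 (exact permutation test, p = 1.00). Adjusted over the 3 comparisons by Benjamini and Hochberg, each p was 1.00. With 2 samples against 2 this exact permutation test cannot go below p = 0.333, so none of the comparisons could have passed. All replicates came from 1 line, so the p-values say nothing of other lines. The direction of the APH against MMS difference turned without APH replicate 1 (0.31), and covered bases in place of peak numbers turned both APH differences (0.14 against untreated and 0.17 against MMS). With every list cut to the same number of its strongest peaks, APH and MMS had none in the gene and each differed from untreated by −2.55 (exact permutation test, p = 0.333).

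**Figure D1:**
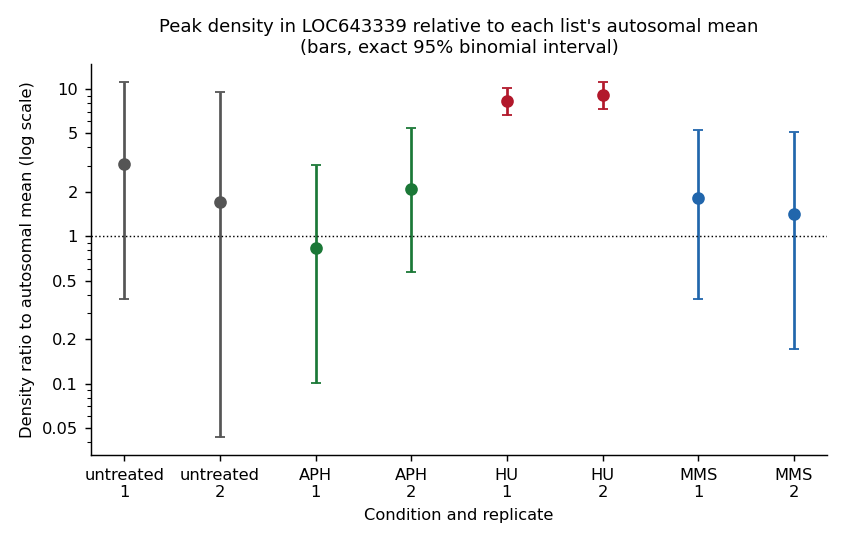
Density ratio of LOC643339 in each list on a log axis, with the dotted line at 1 for the autosomal mean and bars for the exact 95% binomial interval. The HU replicates sit at 8.21 and 9.07 with short bars, and the other 6 lists lie between 0.835 and 3.08 with bars that reach across 1.

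HU peaks lay along the whole gene. The gene was divided into 15 windows of 25 kb, the last slightly shorter. HU replicate 1 had from 3 to 8 peaks per window and HU replicate 2 from 2 to 11, with the same median of 6 in both, and no window was empty in either. All 15 windows reached 2 times the autosomal mean in both HU replicates, where 11.8% of the 110268 autosomal windows did. As the gene was chosen on these peaks, nothing is read from that count. Most of the autosomes held no HU peak at this scale: 75.7% of windows were empty in replicate 1 and 77.8% in replicate 2. The highest number in any autosomal window was 11 in each replicate, and 3.54% and 2.91% of windows reached the mean of LOC643339.

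Within the gene the window numbers of the HU replicates were only weakly correlated. The densest window over both replicates was chr12:93053758-93078757, with 6 peaks in HU replicate 1 and 11 in HU replicate 2. Next came chr12:93003758-93028757 (6 and 8) and chr12:93178758-93203757 (8 and 6), which tied at 14. The sparsest was chr12:93203758-93228757 with 4 and 2, followed by a tie at 8 between chr12:93128758-93153757 (6 and 2) and chr12:93153758-93178757 (3 and 5). Across the 15 windows the Pearson correlation between the HU replicates was 0.170 and the Spearman correlation 0.0835. Each peak was counted in the window of its midpoint. The correlations are given as a description, since the windows are parts of 1 gene that was chosen on these peaks. Over the 55 windows of the gene and its flanks, some of them empty, the same correlations were 0.779 and 0.813. Window numbers range less within the gene, which limits a correlation there, so nothing is read from the contrast. The variance of the window values was 0.271 times their mean in replicate 1 and 0.998 times in replicate 2. Counted in 3 equal parts from the start site, HU replicate 1 had 32, 26 and 31 peaks and HU replicate 2 had 29, 21 and 36. The middle part was the lowest in both.

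Gaps between neighbouring HU peaks had a median of 2028 bp in replicate 1 and 2429 bp in replicate 2. The longest peak-free stretch was 12055 bp in replicate 1 (chr12:93127658-93139712) and 18218 bp in replicate 2 (chr12:93197799-93216016), and the latter crossed into the sparsest window. HU peaks covered 33.8% of the gene in replicate 1 and 24.6% in replicate 2, against 3.25% and 2.68% of the autosomes. Peaks of untreated cells covered 0.372% and 0.0535% of it, those of APH-treated cells 0.458% and 0.627%, and those of MMS-treated cells 0.336% and 0.224%. The bases covered in both HU replicates came to 40323, or 10.8% of the gene, and 52.4% of the gene lay in no HU peak at all.

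HU peaks in LOC643339 were many but not tall. Their median fold enrichment was 2.62 in replicate 1 (range 2.15 to 3.59) and 2.68 in replicate 2 (2.36 to 3.30), against autosomal medians of 2.70 and 2.77. Peaks of at least 3-fold enrichment made up 5 of the 89 (5.62%) and 6 of the 86 (6.98%), while their autosomal shares were 10.9% and 17.4%. A q-value of at most 0.05 was met by 71 peaks (79.8%) and 50 peaks (58.1%), close to the autosomal 78.4% and 60.3%. None of the 14 peaks of the other conditions met either limit. In those lists only 0.164% to 1.31% of autosomal peaks met the q-value limit and 2.49% to 7.33% the limit on fold enrichment. None among 14 is near that background. Width differed between the replicates: the median was 1042 bp in replicate 1 and 720 bp in replicate 2, beside autosomal medians of 764 and 743 bp. Peaks of 3 kb or more were 12 (13.5%) in replicate 1 against 5.73% over the autosomes, and 5 (5.81%) in replicate 2 against 4.73%.

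Of the 89 peaks of HU replicate 1, 52 (58.4%, 95% interval 47.5 to 68.8) overlapped a peak of replicate 2, and over the autosomes 43.3% did. In the other direction 58 of 86 (67.4%, 56.5 to 77.2) did, against 51.0%. A gene this densely covered offers more bases to overlap, and how much of the shared fraction this accounts for was not tested. Peaks found in the other replicate were wider than those that were not, with medians of 1480 and 686 bp in replicate 1 and 860 and 498 bp in replicate 2. Their fold enrichment was nearly the same (medians 2.64 and 2.59, and 2.68 and 2.65). A wider peak offers more bases to overlap, so nothing is read from the difference in width. No peak of at least 3-fold enrichment in one replicate met such a peak in the other, and demanding an overlap of 50% of the peak brought the mean shared fraction from 62.9% to 34.5%.

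Overlapping peaks of both HU replicates merged into 49 shared sites between 469 and 7279 bp wide (median 2275 bp). Shared site 1, chr12:93329202-93331758, had fold enrichments of 2.96 and 3.30 in HU replicates 1 and 2, lay 47.3 kb into the gene and also held the only peak of untreated replicate 2. Shared site 2, chr12:93183327-93183913, had 3.59 and 2.57 and was 587 bp wide. Its value in replicate 1 was the highest of any peak in the gene. Shared site 3, chr12:93365508-93367320, had 3.00 and 2.90, lay 11.3 kb from the start site and overlapped a peak of APH replicate 2. Shared site 4, chr12:93043014-93048799, had 2.97 and 2.92 over 5786 bp. Shared site 5, chr12:93070073-93073046, had 2.66 and 3.20 and lay in the densest window. All 5 were intronic in GENCODE 44. Of the 49 sites, 39 were matched by no list of another condition, 10 by 1 list and 0 by 2 or more. Only 14 peaks of the other conditions lay in the gene, so few sites could be matched. The share of such sites over the autosomes is not given here, and nothing is read from these numbers.

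The 14 peaks outside HU were few and scattered. Their fold enrichment ran from 2.46 to 2.83 and their width from 200 to 902 bp. The medians of these lists in the gene were 2.48 to 2.83, against 2.55 to 2.67 over the autosomes. HU peaks in the gene had medians of 2.62 and 2.68. Every listed peak had passed the caller's p-value threshold, and few peaks stand behind the medians outside HU. These medians therefore do not tell whether the strength of the mark differed. Untreated replicate 1 had peaks at chr12:93104175-93104724 and chr12:93265192-93266033, and untreated replicate 2 had a single one at chr12:93329569-93329768. APH replicate 1 had chr12:93237204-93238013 and chr12:93352046-93352947, and APH replicate 2 had peaks at 93121268, 93217268, 93335455 and 93365848 (start positions). MMS replicate 1 had chr12:93181947-93182189, chr12:93255856-93256199 and chr12:93338189-93338856, and MMS replicate 2 had chr12:93107327-93107964 and chr12:93110953-93111152. No 2 of these 14 peaks overlapped, whether between replicates of a condition or between conditions. Across the autosomes 5.98% to 19.4% of the peaks in these lists overlapped a peak of the other replicate. No such share is given here between conditions. With so few peaks in the gene, nothing is read from the absence of overlap. Of the 14, 13 lay on a peak of at least 1 HU replicate, namely all 3 of the untreated, all 6 of the APH and 4 of the 5 MMS peaks. Over the autosomes 37.3% of the peaks of these 6 lists did so, and HU peaks covered 47.6% of LOC643339. The gene was chosen for its many HU peaks, and an overlap of 1 bp sufficed, so nothing is read from this share either. The labels list 1 input library for the series, so the lists may not be independent of each other.

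In windows, 1 of the 15 had a peak in both APH replicates, the one centred 36.5 kb into the gene, and such a peak suffices to pass 2 times the APH mean. Over the autosomes 4.09% of windows passed in both APH replicates. None of the 15 had a peak in both untreated replicates or in both MMS replicates, where 0.760% and 2.36% of autosomal windows passed. With 15 windows these numbers are near the background.

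The dense stretch was wider than the gene and uneven at its ends. In the 500 kb below the gene, downstream of it in the direction of transcription, HU replicates had 63 and 65 peaks with density ratios of 4.35 and 5.12. In the 500 kb above, upstream of the start site, they had 39 and 31 peaks with ratios of 2.69 and 2.44. These ratios were below those of the gene and above 1. Of 20 windows on each side, 14 below and 6 above reached 2 times the mean in both HU replicates. The unbroken run of such windows that contained the gene was 26 windows or 649 kb long (chr12:92878758-93527736), reached 125 kb below and 150 kb above it, and held 141 and 137 HU peaks. Beyond the upper end the mark thinned out: 10 and 9 of the 20 upstream windows held no HU peak, whereas 3 and 1 of the downstream windows were empty. A second dense stretch lay farther down, where the window centred 711 kb from the start site held 3 and 8 peaks and that at 861 kb held 7 and 5. The other 6 lists had from 0 to 4 peaks in either flank. With 250 kb flanks the mean HU flank ratio was 4.64, with 500 kb it was 3.65 and with 1 Mb it was 2.98, each an average over both sides.

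**Figure D2:**
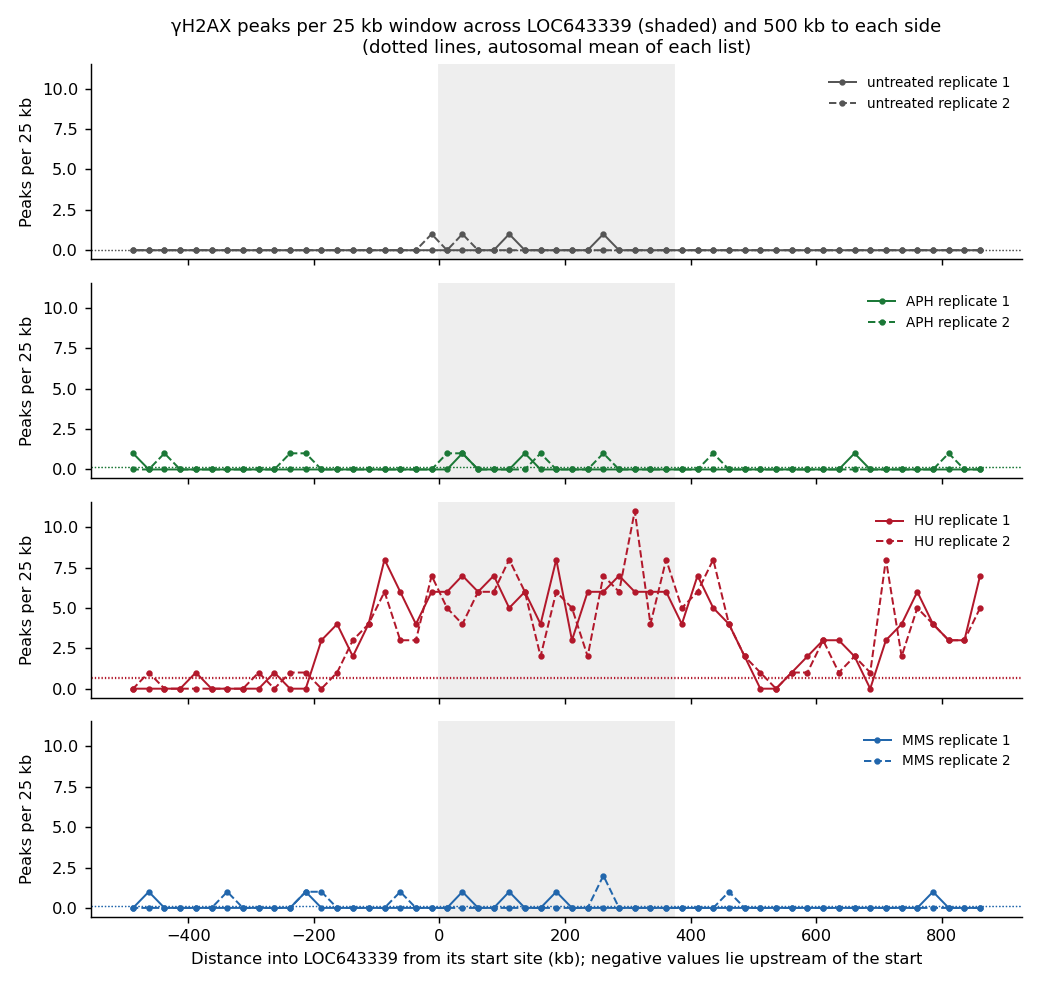
γH2AX peaks in each 25 kb window (vertical axis) against distance from the start site in kb (horizontal axis), 1 panel per condition, solid and dashed lines for replicates 1 and 2, dotted lines for each list's autosomal mean, gene shaded. Under HU both lines stay at 2 or more across the gene and lie at 0 or 1 in the 12 windows farthest upstream, while the other panels never exceed 2.

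The start site itself was free of peaks. The nearest HU peak lay 2486 bp away in replicate 1 (chr12:93380222-93380421, upstream of the gene) and 1914 bp away in replicate 2 (chr12:93375294-93375822, inside it). In the other lists the nearest peak was between 11294 bp (APH replicate 2) and 111703 bp (untreated replicate 1) away. These distances reach to the nearer side only. The whole gap between the HU peaks on either side of the start site was longer than the median gap within the gene in both replicates (medians 2028 and 2429 bp). Whether it was unusually long was not tested. NUDT4, a protein-coding gene on the opposite strand that encodes a diphosphoinositol polyphosphate phosphohydrolase, starts 189 bp from LOC643339, and the genes share the GC-rich stretch printed above head to head.

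RefSeq counts 31 further genes that overlap LOC643339 or lie within 500 kb of it: 7 protein-coding, 10 lncRNA, 11 pseudogenes and 3 snoRNA genes. Among the protein-coding ones 4 of 7 passed 2 times the autosomal mean in both HU replicates, where 30.6% of the 19126 autosomal protein-coding genes did. With 7 genes of 1 region, chosen through their place beside the gene, no more is drawn from this. NUDT4 had 7 and 9 HU peaks in replicates 1 and 2 and density ratios of 7.99 and 11.7, as high as those of LOC643339. UBE2N, a ubiquitin-conjugating enzyme with a part in DNA damage signalling, had 8 and 3 peaks (7.61 and 3.26). MRPL42, a protein of the mitochondrial ribosome, had 7 and 8 (4.96 and 6.48).

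These 3 genes lie in order upstream of the start site, and after them the values dropped. SOCS2, a suppressor of cytokine signalling, had 0 and 2 HU peaks (0 and 1.40). CRADD, an adaptor with a death domain, had 1 and 1 (0.159 and 0.181). On the downstream side EEA1, a tethering protein of early endosomes, had 9 and 9 peaks (1.96 and 2.24), and PLEKHG7 beyond it had 8 and 6 (3.97 and 3.40). In the other lists these 7 genes held 0 to 3 peaks each.

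**Figure D3:**
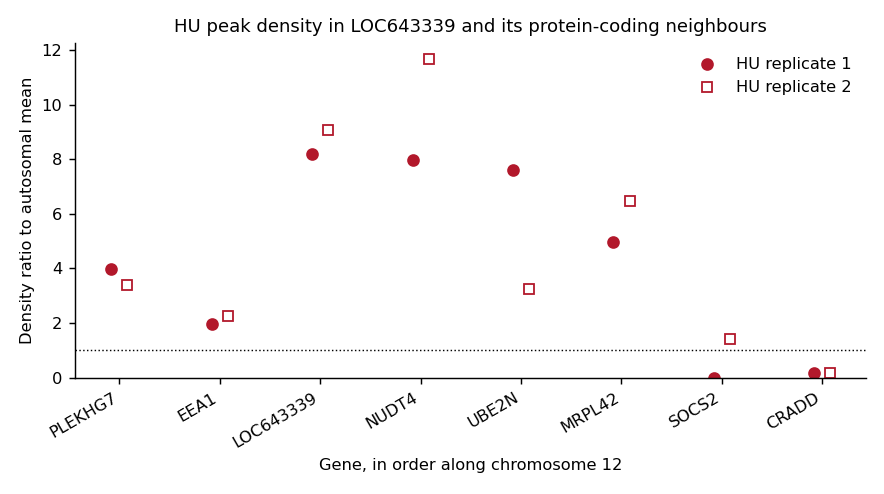
HU density ratio (vertical axis, from 0) of LOC643339 and its 7 protein-coding neighbours in their order along the chromosome, filled circles for HU replicate 1 and open squares for replicate 2, dotted line at the autosomal mean. LOC643339 and NUDT4 stand at 7.99 to 11.7, and SOCS2 and CRADD at 0 to 1.40.

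Of 9 genes that overlap LOC643339, the lncRNAs held most of the HU peaks. LINC02413 had 5 and 8, LOC105369908 had 5 and 6, and LINC02412 had 2 and 3. The pseudogene DPPA3P5 had 1 and 0, and the other 5, all of about 0.5 kb or less, had none. A peak was counted for each gene it overlaps, and LINC02413 reaches beyond the lower end of LOC643339, so part of its peaks lie outside the gene.

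GENCODE 44 does not draw LOC643339 as 1 gene but as 2 minus-strand lncRNA genes with a gap between them, ENSG00000257322 (chr12:93003390-93215679) and ENSG00000257252 (chr12:93316722-93377753). Of the 49 shared sites 13 lay in no GENCODE gene, that is, in the gap. Exons of GENCODE genes made up 3.76% of the interval, and 7 HU peaks of replicate 1 (7.87%) and 9 of replicate 2 (10.5%) touched one. By bases, 3.02% of the sequence in HU peaks and 4.44% of the rest was exonic, so by this annotation most marked bases were intronic or, in the gap, intergenic. The exons of the RefSeq transcript were not used here.

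The GC content of the gene was 41.7%, above 64.2% of autosomal 25 kb windows (median 39.7%). The 13975 windows within 1 percentage point of it had on average 0.863 and 0.698 HU peaks in replicates 1 and 2. LOC643339 had 5.95 and 5.75, but it was chosen on these peaks, so nothing is read from the difference. Whether GC content bears on the HU peak number was not tested. Bases inside HU peaks were 42.2% GC and those outside 41.2%. Across the 15 windows the mean HU number had a Spearman correlation of 0.496 with GC content and of 0.215 with Alu content, as a description.

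Alu-like sequence took up 17.5% of the gene, against 10.8% of chromosome 12, 12.1% of the downstream flank and 14.3% of the upstream flank. It was not gathered in the peaks: 15.8% of bases in HU peaks and 19.0% of bases outside them were Alu-like. A match was touched by 52 peaks of HU replicate 1 (58.4%) and 39 of replicate 2 (45.3%), where the remaining HU peaks of the chromosome gave 58.4% and 57.1%. Among the windows Alu content was lowest at 6.30% in the one centred 161 kb from the start site, with 4 and 2 HU peaks, and highest at 36.3% in the one at 36.5 kb, with 7 and 4. Runs of 10 or more A or T bases, 178 in all, lay in a HU peak in 76 cases (42.7%), near the 47.6% of the gene that HU peaks covered.

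LOC643339 had the second highest number of HU peaks of 56756 autosomal genes and gene loci in replicate 1 and the highest in replicate 2. The immunoglobulin lambda locus IGL, above it in replicate 1 and next below it over both replicates, had 92 and 80 peaks over 897 kb, a density ratio of 3.54 and 3.52. Further down, GPHN, which encodes the scaffold protein gephyrin, had 71 and 49 peaks over 1227 kb (2.00 and 1.57). Both are more than 2 times as long as LOC643339, and both were less dense under HU. In the other lists its rank by peak number was 176 and 391 without treatment, 1170 and 276 with APH, and 379 and 624 with MMS, with many ties at such low numbers.

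**Figure D4:**
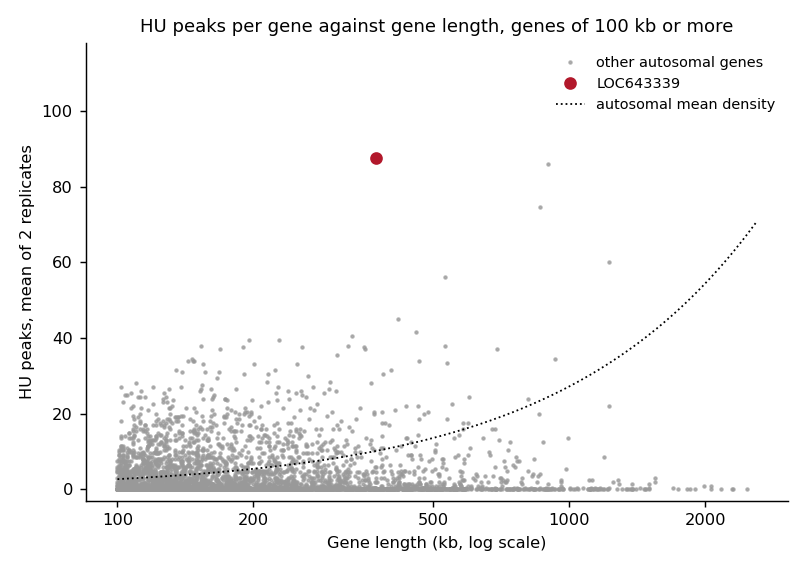
Mean number of HU peaks over the 2 replicates (vertical axis) against gene length in kb on a log axis for the 4215 autosomal genes of 100 kb or more, 1 dot per gene, with the dotted curve for the autosomal mean density. LOC643339 stands alone at 87.5 peaks and 374 kb, and the dot of like height at 897 kb is IGL.

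Whether it was the densest depended on the shortest gene admitted. By HU peaks per kb it came 9th of 4215 genes of at least 100 kb, 84th of 8357 of at least 50 kb and 1st of 1694 of at least 200 kb. Among lncRNA genes it came 6th of 952, 26th of 2146 and 1st of 338 at the same lengths, so it was the densest lncRNA at the 200 kb limit and not at the limits of 100 and 50 kb. In both HU replicates 10.4% of the genes of at least 100 kb and 3.99% of the lncRNA genes among them passed 2 times the mean. The 8 denser genes of at least 100 kb were between 102 and 153 kb long. They were PSD2, ADCY10 and VDAC1, which encode proteins, and the lncRNAs LOC105375683, EPCAM-DT, TRD-AS1, LOC105375070 and LOC105371082. PSD2 led them with ratios of 10.5 and 8.89. By length LOC643339 itself was 101st of 17795 lncRNA genes.

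The genes most like it over the 8 lists, by Euclidean distance between log2(density ratio + 0.5) values and among genes of at least 100 kb, all had fewer HU peaks. RYR1, the calcium release channel of skeletal muscle, was nearest (distance 1.66), with HU ratios of 5.83 and 7.43. PALM2AKAP2, whose product anchors protein kinase A, followed at 1.72 (3.70 and 4.08). NDUFAF6, an assembly factor of respiratory complex I, stood at 2.00 (5.42 and 4.96), FHAD1 at 2.12 (6.01 and 7.10) and the lncRNA LOC105375199 at 2.13 (4.14 and 4.12). All 5 had between 1 and 5 peaks in each of the other 6 lists, as LOC643339 had between 1 and 4.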

How the data were processed

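γH2AX ChIP-seq peak lists of 8 samples were used, 2 each of untreated, APH, HU and MMS. The authors aligned reads to GRCh38 (hg38) with Bowtie2, removed duplicates and low-quality alignments with SAMtools, and ran MACS2 in broad mode on each replicate against input. Versions are not given in the sources used here, and the input was not used here. The deposited lists give each peak's position, a score (not used), the fold enrichment as a ratio, and −log10 of the p-value and q-value, as the authors' caller wrote them. Every listed peak had passed the caller's p-value threshold, so weaker regions are not seen, and no depth is known.

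The members and lists were chosen with earlier results of these data known. Positions were converted to 1-based. Peaks on the 22 autosomes were counted by overlap of at least 1 bp with RefSeq genes (GRCh38.p14), and densities were set against 2756 Mb of assembled autosomal sequence. Exact permutation tests, two-sided, compared mean log2(ratio + 0.5) with SciPy 1.17.1. Alu-like elements were found with BLAST 2.17.0 (E at most 1e-05, at least 100 bp) from a chromosome 12 element reached through RN7SL1, so they are an approximation to a repeat annotation. Exons came from GENCODE 44. Named sites were the 5 shared HU sites of highest mean fold enrichment, any with peaks in 2 or more other lists (there were 0), and the 2 densest and 2 sparsest windows. Named genes were the protein-coding neighbours within 500 kb, the 3 next in HU peak number, 1 of which is not reported here, and the 5 most alike over 8 lists, and the 8 denser genes were named after their values were seen. The counting was tested on simulated peaks.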

Additional observations from a re-analysis of the deposited data

How the results depend on the processing

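Counting midpoints or merging peaks less than 1 kb apart moved the 4 density ratios by less than 1 SD of the replicates (HU 8.12 when merged) and kept the direction of the 3 differences. Keeping HU peaks with q-values up to 0.05 gave 8.55, an alternative added after seeing the data. The HU density ratio (8.64) was 3.94 with peaks of at least 3-fold enrichment, 7.64 with the stronger 50% of each list, 5.11 with equal numbers of strongest peaks, 9.79 by covered bases and 6.91 against the mean of chromosome 12. It ran from 8.21 to 9.07 without 1 replicate. With 3-fold enrichment the untreated, APH and MMS ratios were all 0, so their differences were given no value, 3 of 15 windows passed, and the shared fraction was 0. With the stronger 50% APH had 0.417 and MMS 0.704, with equal numbers both had 0 beside 2.55 without treatment, and by covered bases MMS had 1.17. Without 1 replicate the ratio ran from 1.70 to 3.08 without treatment, 0.835 to 2.10 with APH and 1.41 to 1.81 with MMS.

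APH against untreated (−0.59) became 0.14 by covered bases, and APH against MMS (−0.17) became 0.17. With equal numbers of the strongest peaks APH and MMS each differed from untreated by −2.55 (exact permutation test, p = 0.333, the smallest possible). Leaving out 1 sample gave −1.07 to −0.11 for APH against untreated, −0.77 to −0.07 for MMS against untreated and −0.65 to 0.31 for APH against MMS, the last turning without APH replicate 1. The cause was not tested. With the replicate number as a block the differences were −0.59, −0.42 and −0.17 with exact permutation p = 1.00, 0.5 and 1.00 (0.5 is the smallest possible). Same-numbered samples deviated together by correlations of 0.0254, 0.00111 and 0.100 over 2425 bins of 1 Mb in these 3 comparisons. These are small, and they do not settle whether samples of the same number shared a batch. The shared fraction (62.9%) was 34.5% with an overlap of 50% of the peak and 81.8% within 1 kb. Flanks of 250 kb gave 4.64 and of 1 Mb 2.98 (3.65 at 500 kb). The rank by density (9) was 84 from 50 kb and 1 from 200 kb. The unknown depth and the 1 to 4 peaks per list outside HU limit all of these.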
